A study of Mus musculus with 12 samples.

Results

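The 39 genes described here run the cell division cycle or mark cells that are in it. They were chosen by symbol from a list of cell cycle and proliferation genes, and each of the 39 matched exactly 1 of the 57009 identifiers in the count table. All 39 had enough counts to be tested, among 14413 genes. RNA was sequenced from dendritic cells (DCs) of the spleen, which take up antigen and show it to T cells, of C57BL/6 (B6) mice. All DC donors had been injected with B16 melanoma cells that secrete the cytokine Flt3 ligand, under which DC numbers grow, and spleens were taken from these tumour-bearing mice, whose age is not in the labels. DCs were enriched by removing T, B and NK cells and macrophages with beads, and were cultured for 3 h in 4 ways, with 3 libraries each. The AlloTem group was cultured with alloantigen-specific memory T cells of BALB/c origin. The SynTem group was cultured with syngeneic effector memory T cells of B6 mice. The LPS group received lipopolysaccharide, a bacterial wall component that activates DCs, and the DC only group was cultured alone. DCs were then sorted from all cultures on CD11b and CD11c. The strain of the T cells and their specificity for alloantigen changed together, so that strain and specificity cannot be told apart.

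A cell that divides passes from G1, where D-type cyclins with Cdk4 and Cdk6 release E2F factors, into S phase, where cyclin E with Cdk2 and the Mcm helicase start DNA replication. It then passes through G2 into mitosis, driven by cyclin A and B with Cdk1 and by the Polo and Aurora kinases. CDK inhibitors such as p21 (Cdkn1a) and p27 (Cdkn1b) hold the cycle back. Flt3 ligand is known to act on dividing DC progenitors, and DCs in the spleen include cells that still divide. The 39 genes were read in 4 sets by role: 17 of G1/S and replication, 13 of G2/M, 5 G1 cyclins and kinases, and 4 that are CDK inhibitors or Myc.

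Each library also carried a deposited batch number, 1 to 3, and in 12 of 12 libraries it equalled the replicate number. The sources used here say neither what a batch was nor that replicates came from different mice or wells, and the p-values therefore reflect library-to-library spread alone, which could be technical. Among pairs within a group, DC only 1 and 2 were the closest, with a chi-square of counts per degree of freedom of 5.82. The other pairs had 24.1 (SynTem 2 and 3) to 73.0 (AlloTem 2 and 3). Why DC only 1 and 2 were so close was not tested. Total counts ran between 13903574 and 21861156 per library, and the 39 genes took 0.364% (SynTem 1) to 0.658% (AlloTem 2) of them. The summed level of 16 conventional DC markers was 12050 to 22580 CPM, counts scaled to the effective library size, in every library, and 7 melanoma markers summed to 2.16 to 7.29 CPM. T cell markers (20 of 20 tested) summed to 152 to 312 CPM in AlloTem, 301 to 708 CPM in SynTem, 71.6 to 187 CPM in LPS and 65.6 to 107 CPM in DC only, with Cd3e at 0 in DC only 1. Y-linked transcripts summed to 131 to 220 CPM in 5 libraries, the 4 of batch 3 and SynTem 2, and to 0 to 10.3 CPM in the other 7. In whole-library RNA, fewer cells of a type and less RNA per cell cannot be told apart.

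Compared per length of exon, as CPM divided by exon length in kilobases (RPKM), Cdkn1a was the highest of the 39 genes, at 135.9 ± 100.1 RPKM (SD, n = 12), with libraries between 30.1 and 386 RPKM. Pcna, the sliding clamp of DNA polymerase, followed at 83.1 ± 9.11 RPKM, and the libraries of the 2 genes overlapped. Mki67, the proliferation marker Ki-67, Mcm3, a helicase subunit, and Top2a, the topoisomerase that untangles DNA in mitosis, averaged 59.5, 56.2 and 53.2 RPKM, and differed from each other by less than their spread over libraries. The lowest were Cdc6, Ccne2, Tyms and Ccne1, at 6.59, 6.04, 5.50 and 5.45 RPKM. Cdkn1a also varied most between libraries, 12.8-fold between the highest and the lowest, followed by Ccnd2 at 6.26-fold, while Mcm6 varied least, at 1.41-fold. SynTem 1 was the lowest library for 27 of the 39 genes, and LPS 3 was the highest for 14. Where strand was not counted, reads of overlapping exons cannot be assigned, and the strand setting is not given: 23.4% of Ccnd1 exon bases lie over a gene on the opposite strand, as do 19.7% of Cdk4 (Tspan31), 17.4% of Ccne2 (Ints8) and 12.5% of Ccna2 (Exosc9).

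**Figure D1:**
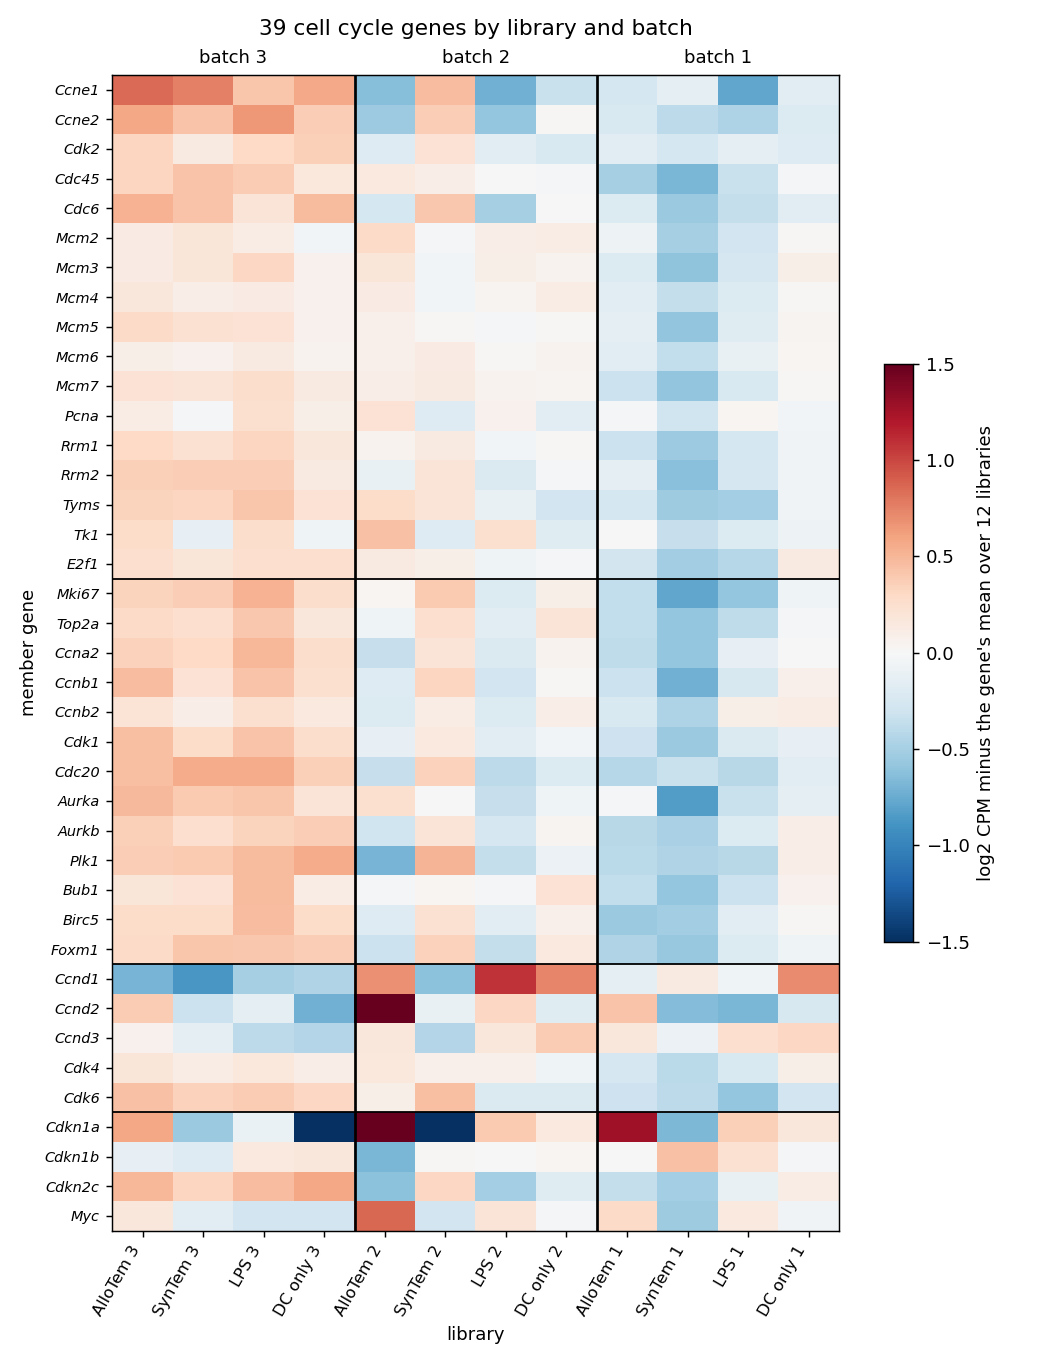
Level of each of the 39 genes (rows, in the 4 sets by role) in each of the 12 libraries (columns, by batch), as log2 CPM minus the mean of that gene over all libraries; values past an end of the colour scale are drawn at that end. Most G1/S and G2/M genes are above their mean in the 4 libraries of batch 3 and below it in batch 1, SynTem 1 being lowest for 27 genes.

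The first question was whether alloreactive and syngeneic memory T cells left DCs with different cell cycle transcripts. No replication or mitosis gene was called between AlloTem and SynTem, and the members with the largest differences were the p21 gene Cdkn1a, the cyclin D2 gene Ccnd2 and Myc, all with higher levels in AlloTem. None of these passed the test either: edgeR's quasi-likelihood test called 0 of the 39 genes at an adjusted p under 0.05, where it called 0.167% of all genes tested (24 genes, either direction). At an unadjusted p under 0.05, 5 of the 39 were higher in AlloTem and 0 were lower, against 5.68% and 3.91% of all genes. The median log2 difference was 0.02 over the 39 genes and -0.01 over all genes. With the batch number as a block, 78 genes (0.541%) were called, and again 0 of the 39. At an unadjusted p under 0.05 the block gave 5 of the 39 higher and 1 lower, beside 1116 and 919 of all genes. The smallest edgeR adjusted p of the 39 was 0.0791 with the block and 0.145 without it.

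Cdkn1a, whose protein p21 binds and inhibits cyclin-CDK complexes, had 923, 1371 and 572 CPM in AlloTem libraries 1 to 3, against 238.5, 128 and 259 CPM in SynTem. It had 488, 501 and 356 CPM in LPS and 428, 423 and 107 CPM in DC only. Every AlloTem library lay above the 9 others, AlloTem 3 being the nearest to them and DC only 3 the lowest of all. The log2 difference between AlloTem and SynTem was 2.20 ± 0.51 (SE; edgeR adjusted p = 0.145), or 4.58-fold, and was positive in each batch (1.95, 3.41 and 1.14 in batches 1 to 3). Against DC only it was 1.58 ± 0.50 (edgeR adjusted p = 0.190), and against LPS 1.09 ± 0.50 (edgeR adjusted p = 0.776).

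Ccnd2, a D-type cyclin of G1, had 349, 986 and 339.5 CPM in AlloTem libraries 1 to 3, against 166, 241 and 208 CPM in SynTem. It had 161, 322 and 237 CPM in LPS and 221, 229 and 157 CPM in DC only. AlloTem 2 stood far above the other 11 libraries, and the other 2 AlloTem libraries were still above all libraries of the other groups, LPS 2 coming closest. The log2 difference was 1.44 ± 0.41 against SynTem (edgeR adjusted p = 0.237), 1.46 ± 0.41 against DC only (edgeR adjusted p = 0.134) and 1.22 ± 0.41 against LPS (edgeR adjusted p = 0.436). Without AlloTem 2 these were 0.74, 0.77 and 0.52.

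Myc, the growth-promoting transcription factor, had 65.1, 96.8 and 60.2 CPM in AlloTem libraries 1 to 3, against 36.8, 43.6 and 47.6 CPM in SynTem. It had 59.2, 60.8 and 43.7 CPM in LPS and 51.3, 52.3 and 43.6 CPM in DC only. AlloTem libraries lay above all SynTem and DC only libraries and overlapped LPS, where LPS 2 was just above AlloTem 3. The log2 difference was 0.79 ± 0.19 against SynTem (edgeR adjusted p = 0.150), 0.59 ± 0.19 against DC only (edgeR adjusted p = 0.192) and 0.44 ± 0.19 against LPS (edgeR adjusted p = 0.726). Without AlloTem 2 these were 0.55, 0.35 and 0.20. These 3 comparisons share the AlloTem libraries, so that they are not independent of each other.

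**Figure D2:**
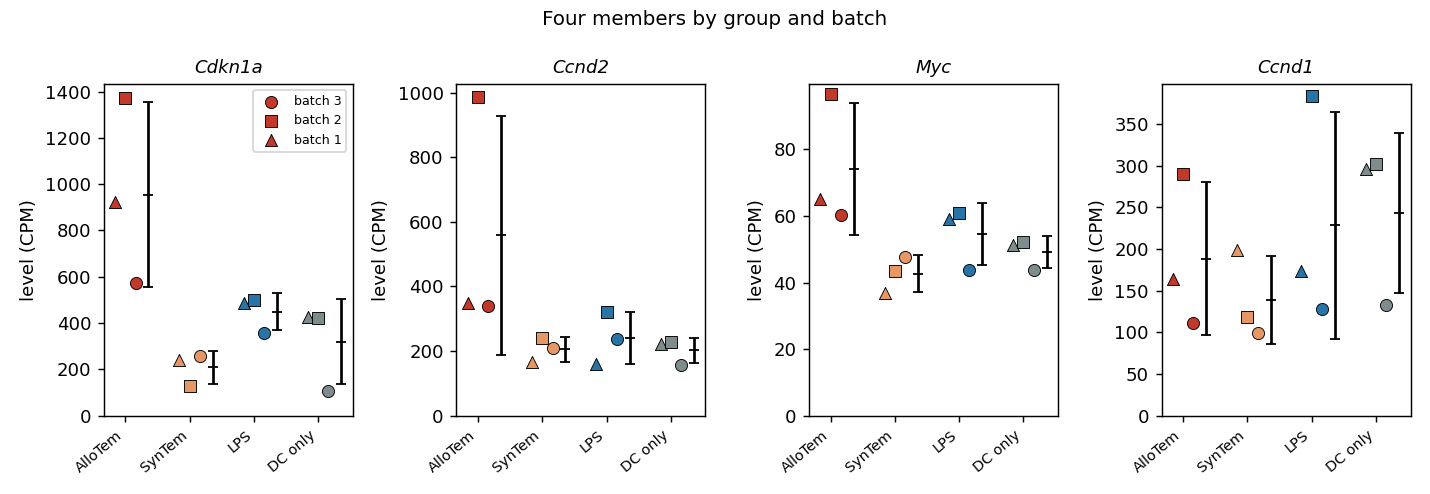
Level of Cdkn1a, Ccnd2, Myc and Ccnd1 in CPM (vertical axis, from 0) by culture group, with 1 point per library, shaped by batch, and the group mean ± SD as a bar beside it (n = 3). The 3 AlloTem libraries of Cdkn1a, between 572 and 1371 CPM, lie above all other libraries; the libraries of Ccnd1 overlap between all groups.

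Among replication genes, Tk1, thymidine kinase of the nucleotide salvage pathway, had 98.4, 134 and 119.6 CPM in AlloTem against 77.9, 86.3 and 91.0 CPM in SynTem, a log2 difference of 0.46 ± 0.14 (edgeR adjusted p = 0.281). Pcna had 194, 229.7 and 215 CPM in AlloTem against 161, 173 and 196 CPM in SynTem, a log2 difference of 0.27 ± 0.11 (edgeR adjusted p = 0.458). The Tk1 libraries of the 2 groups did not overlap, whereas those of Pcna did. In all, 5 of the 39 genes had AlloTem libraries above every SynTem library, namely Cdkn1a, Ccnd2, Ccnd3, Myc and Tk1, against 7.09% of all genes tested. The calls of these genes rest on the test used: DESeq2, with 318 genes called, called Cdkn1a (DESeq2 adjusted p = 0.000396), Myc (0.0154) and Ccnd2 (0.0167), and edgeR called Cdkn1a (edgeR adjusted p = 0.0491) when DC only 3 was left out. T cell markers were lower in AlloTem than in SynTem in batches 2 and 3 (medians of the 20 genes' log2 ratios -2.46 and -2.08) and not in batch 1 (0.09), and their part in these values was not tested.

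Mitosis genes leaned no common way between AlloTem and SynTem. In batch 1, 11 of the 13 G2/M genes were higher in AlloTem, with a median log2 ratio of 0.21, while in batch 2 only 1 of 13 was, with a median of -0.42, and in batch 3 it was 8 of 13, with a median of 0.04. The 13 G2/M genes together made 1273, 1545 and 2059 CPM in AlloTem libraries 1 to 3 and 1059, 2012 and 2039 CPM in SynTem. In both groups library 1 was the lowest and library 3 the highest, and the groups overlapped. SynTem 2, in the batch 2 ratio, correlated best with libraries numbered 3 and held Y-linked transcripts (175 CPM), while AlloTem 2 held 0 CPM. The 95% intervals of the log2 differences differed in width between the 13 genes, with -0.39 to 0.38 for Ccnb2 and -1.16 to 0.40 for Plk1, and the highest upper end was 0.96 for Aurka. These come from the fit without a batch term. With the batch block the lowest end of the 13 intervals was -0.93 and the highest was 0.74.

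Against DC only, AlloTem again had 0 of the 39 genes called by edgeR, where 1.76% of all genes were (253 genes). At an unadjusted p under 0.05, 4 genes were higher and 0 lower, against 7.55% and 5.19% of all genes: Ccnd2, Cdkn1a and Myc, given above, and Tk1, with 98.4, 134 and 119.6 CPM in AlloTem against 94.0, 87.3 and 94.8 CPM in DC only (log2 difference 0.35 ± 0.14, edgeR adjusted p = 0.326). The same 4 had no overlap between the libraries of AlloTem and DC only, against 9.35% of all genes with AlloTem higher. The median log2 difference of the 39 genes was -0.03, and that of all genes was 0.00097. DESeq2, with 676 genes called, called Ccnd2 (DESeq2 adjusted p = 0.00709) and Cdkn1a (0.0174), and a fit with the Y-linked sum added as a covariate called Cdkn1a (edgeR adjusted p = 0.0139) and Myc (edgeR adjusted p = 0.0362). With the batch block 420 genes (2.91%) and 0 of the 39 were called. T cell markers were higher in AlloTem than in DC only in 20 of 20 cases, with a median log2 difference of 1.88. Of them 8 were called, and their part in these values was not tested. The 13 G2/M genes were higher in AlloTem than in DC only in 1 of 13 cases in batch 1, 1 of 13 in batch 2 and 9 of 13 in batch 3.

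AlloTem against LPS asked how alloreactive T cells compare with a microbial stimulus. Of the 39 genes edgeR called 0, where 0.451% of all genes were called (65 genes), or 0.944% (136 genes) and again 0 of the 39 with the batch block. Ccnd2 and Myc were higher in AlloTem at an unadjusted p under 0.05 and 0 genes were lower, against 4.27% and 2.23% of all genes, and Ccnd2 and Cdkn1a had AlloTem libraries above all LPS libraries, against 5.52% of all genes. The median of the 39 differences was 0.01 and that of all genes -0.0047. DESeq2 called 0 of the 39 as well. The T cell markers were positive in 20 of 20 cases, with a median log2 difference of 1.54, 11 at an unadjusted p under 0.05 and 0 called, and their part here was not tested.

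Syngeneic T cells were compared with DCs alone to ask what T cells do without alloantigen. EdgeR called 0 of the 39 genes, with 0 at an unadjusted p under 0.05 (8.24% of all genes), where it called 0.0902% of all genes (13 genes; 21 genes, or 0.146%, and 0 of the 39 with the batch block), and DESeq2 called 0 of the 39. The smallest p-values belonged to Ccnd1, Ccnd3 and Cdkn1a. Ccnd1, the cyclin D1 gene, had 199, 118 and 98.9 CPM in SynTem against 297, 302 and 132 CPM in DC only (log2 difference -0.82 ± 0.50, edgeR adjusted p = 0.722). Ccnd3, the cyclin D3 gene, had 210.5, 164 and 202 CPM in SynTem against 278, 292 and 165 CPM in DC only (log2 difference -0.35 ± 0.22, edgeR adjusted p = 0.725). For both genes the groups overlapped through library 3 of DC only, which was the lowest of its group. The Cdkn1a difference was -0.62 ± 0.49 (edgeR adjusted p = 0.803), and it was negative in batches 1 and 2 (-0.84 and -1.72) and positive in batch 3 (1.27). Without DC only 3 it was -1.03 and without DC only 1 it was -0.35, and leaving out DC only 2 or SynTem 2 also moved it toward 0. With the Y-linked level as a covariate it became 0.12. The Ccnd3 difference was -0.57 without DC only 3 and -0.21 without DC only 2. The median was -0.09 over the 39 genes and 0.0027 over all genes. Of the 20 T cell markers 19 were higher in SynTem, with a median log2 difference of 3.09 over the 20. Of them 7 were called, and the part of these markers here was not tested.

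In the SynTem comparison the direction of the G2/M genes differed between batch numbers. The batch 2 pair, SynTem 2 and DC only 2, correlated best with libraries numbered 3 and 1 respectively, rather than with number 2. Whether its ratio compares libraries of 1 batch was not tested. In batch 1, 0 of 13 were higher in SynTem than in DC only, with a median log2 ratio of -0.57, whereas in batch 2 it was 12 of 13 with a median of 0.15, and in batch 3 it was 8 of 13 with a median of 0.04. The 17 G1/S and replication genes were higher in SynTem in 1, 11 and 12 cases in batches 1 to 3. SynTem 1, with 1337 CPM over the 17 genes, was below every DC only library (1841 to 2005 CPM), and SynTem 2 and 3, with 1919 and 2085 CPM, were not.

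LPS against DC only showed 0 called members, and edgeR called 0 of all 14413 genes (0%), with 531 genes (3.68%) at an unadjusted p under 0.05 and 0 of the 39 among them; the batch block also gave 0 genes. DESeq2 called 10 genes, limma voom 0 genes, and each 0 of the 39. Tk1 had 85.8, 117 and 119 CPM in LPS against 94.0, 87.3 and 94.8 CPM in DC only, a log2 difference of 0.22 ± 0.14. Pcna had 203, 207 and 234 CPM in LPS against 192, 178 and 210 CPM in DC only, a log2 difference of 0.15 ± 0.11. Cdc6, which loads the Mcm helicase on origins, had 26.0, 23.6 and 38.2 CPM in LPS against 29.7, 33.4 and 46.4 CPM in DC only, a log2 difference of -0.32 ± 0.31. Single libraries moved all 3 values: left out, LPS 3 gave 0.14 for Tk1, 0.08 for Pcna and -0.56 for Cdc6, LPS 1 gave 0.36 for Tk1 and DC only 3 gave -0.11 for Cdc6, while leaving out DC only 2 moved Pcna toward 0 and leaving out LPS 2 moved Cdc6 toward 0. These 3 genes had the smallest p of the 39 (edgeR adjusted p = 0.999 for all), and the libraries overlapped between LPS and DC only. The median was -0.04 over the 39 genes and 0 over all genes. All 13 G2/M differences were negative, between -0.26 and -0.00072, in this fit, yet within batches 0, 0 and 11 of 13 were higher in LPS in batches 1, 2 and 3. The 3 comparisons with DC only share its libraries.

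It was between batches that members were called. In a fit with group and batch as terms, 24 of the 39 were higher in batch 3 than in batch 1 and 0 were lower, where edgeR called 4.48% of all genes higher and 5.22% lower (9.7% in either direction, 1398 genes). The 24 comprised 12 of the 17 G1/S and replication genes, 11 of the 13 G2/M genes, Cdk6 among the 5 G1 cyclins and kinases, and 0 of the 4 CDK inhibitors and Myc. The median log2 difference was 0.55 over the 39 genes and 0.01 over all genes. Batch 3 libraries lay above every batch 1 library for 28 of the 39 (11.4% of all genes) and below for 1, Ccnd1 (9.76% of all genes). The 13 G2/M genes summed to 2059, 2039, 2254 and 1945 CPM in the AlloTem, SynTem, LPS and DC only libraries of batch 3, to 1545, 2012, 1424 and 1766 CPM in batch 2 and to 1273, 1059, 1266 and 1618 CPM in batch 1. All libraries of batch 3 were above all of batch 1, and SynTem 2 lay apart from the rest of its batch, within the range of batch 3. The 17 G1/S and replication genes averaged 2116 ± 89.6 CPM in batch 3, 1904 ± 73.5 CPM in batch 2 and 1608 ± 209 CPM in batch 1 (SD, n = 4 each).

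The calls are tied to single libraries even where the direction is not. Left out one at a time, AlloTem 1, AlloTem 3, SynTem 1, LPS 1, LPS 2, LPS 3 or DC only 3 each brought the calls to 0 of the 39, and to 0 of all genes, with 29 to 34 of the 39 at an unadjusted p under 0.05 (35 of the 39 with all libraries, and 30.9% of all genes). Leaving out AlloTem 2, SynTem 2, SynTem 3, DC only 1 or DC only 2 left 21 to 30 called. The calls over all genes also differed between these 5 fits, with 978, 2898, 2162, 1726 and 1410 genes in that order. All 24 differences were positive in each of these 12 fits, between 0.24 and 1.10, with a highest edgeR adjusted p of 0.165. By DESeq2, 29 of the 39 were called among 2579 genes, and by limma voom 27 among 1597 genes.

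**Figure D3:**
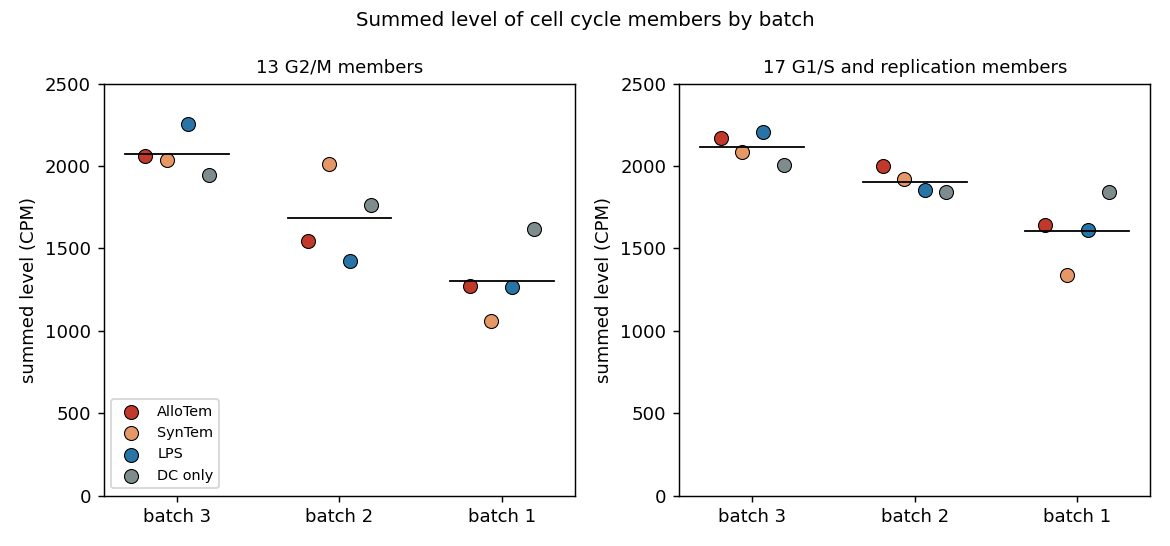
Summed level in CPM (vertical axis, from 0) of the 13 G2/M genes (left) and the 17 G1/S and replication genes (right) by batch, with 1 point per library, coloured by culture, and a line at the batch mean of 4 libraries. Batch 3 libraries lie between 1945 and 2254 CPM for G2/M genes and batch 1 libraries between 1059 and 1618 CPM, with SynTem 2 near the level of batch 3.

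Values below are in CPM in the order AlloTem, SynTem, LPS and DC only within a batch. Among G1 regulators, Cdk6, the kinase partner of D-type cyclins, had 272, 254, 262 and 249 CPM in batch 3, 212, 274, 172 and 173 CPM in batch 2 and 162, 153, 134 and 164 CPM in batch 1. It was 1.70-fold higher in batch 3 than in batch 1 (log2 difference 0.76 ± 0.12, edgeR adjusted p = 0.0299), with no overlap, and SynTem 2 was as high as batch 3. Cdk4, its sister kinase, had a log2 difference of 0.33 ± 0.10 that missed the threshold (edgeR adjusted p = 0.0631). The cyclin D1 gene Ccnd1 went the other way, with 111, 98.9, 128 and 132 CPM in batch 3, 290.5, 118, 384 and 302 CPM in batch 2 and 164, 199, 174 and 297 CPM in batch 1. Batch 3 was below batch 1 in every culture, with a log2 difference of -0.82 ± 0.27 (edgeR adjusted p = 0.0880). Ccnd2 and Ccnd3 had log2 differences of 0.09 ± 0.25 and -0.37 ± 0.16, with overlapping batches.

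E2f1, a factor that turns on S phase genes, had 56.4, 53.7, 56.5 and 56.5 CPM in batch 3, 51.9, 50.0, 45.2 and 46.5 CPM in batch 2 and 39.2, 32.9, 35.2 and 52.1 CPM in batch 1. Batch 3 was narrow and above all of batch 1, where DC only 1 was highest (log2 difference 0.50 ± 0.12, edgeR adjusted p = 0.0347). Ccne1, the cyclin E1 gene, had 24.2, 22.8, 18.0 and 19.9 CPM in batch 3, 8.63, 18.6, 8.13 and 10.7 CPM in batch 2 and 11.2, 12.1, 7.85 and 11.96 CPM in batch 1. This was the largest difference of the 39 genes, at 0.99 ± 0.18 (edgeR adjusted p = 0.0299). Ccne2, the cyclin E2 gene, had 30.2, 27.2, 31.5 and 26.1 CPM in batch 3, 13.8, 26.0, 13.5 and 20.3 CPM in batch 2 and 17.1, 15.4, 14.6 and 17.5 CPM in batch 1. In batch 2 both cyclin E genes were high in SynTem 2 and low in AlloTem 2 and LPS 2, and Ccne2 differed by 0.84 ± 0.19 between batches 3 and 1 (edgeR adjusted p = 0.0344). Cdk2, the kinase that cyclin E activates, had 111, 97.7, 109 and 114 CPM in batch 3, 77.8, 103, 79.8 and 75.8 CPM in batch 2 and 78.6, 73.8, 80.9 and 77.9 CPM in batch 1. The 4 cultures of batch 3 stood above batch 1 by log2 steps of 0.40 to 0.54 (edgeR adjusted p = 0.0324).

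For origin licensing and firing, Cdc6 had 47.9, 44.9, 38.2 and 46.4 CPM in batch 3, 27.8, 44.0, 23.6 and 33.4 CPM in batch 2 and 28.9, 22.6, 26.0 and 29.7 CPM in batch 1. Cdc45, a part of the active helicase, had 53.4, 57.3, 55.4 and 47.7 CPM in batch 3, 47.0, 45.6, 42.8 and 41.8 CPM in batch 2 and 30.2, 26.5, 33.9 and 42.2 CPM in batch 1. Both were above batch 1 in all 4 cultures of batch 3, with log2 differences of 0.72 ± 0.16 (Cdc6, edgeR adjusted p = 0.0312) and 0.69 ± 0.14 (Cdc45, edgeR adjusted p = 0.0299). Of the 6 Mcm genes, which encode the ring of the replicative helicase, Mcm4, Mcm5 and Mcm7 were called. Mcm4 had 148, 142, 143 and 138 CPM in batch 3, 144, 129, 136 and 142 CPM in batch 2 and 118, 103, 115 and 133 CPM in batch 1. Mcm5 had 206, 198, 197 and 176 CPM in batch 3, 179, 170.5, 165 and 171 CPM in batch 2 and 154, 112, 149 and 174 CPM in batch 1. Mcm7 had 209.6, 205, 215 and 197 CPM in batch 3, 192, 197, 186 and 186 CPM in batch 2 and 144, 119.6, 154 and 182 CPM in batch 1. In all 3 genes DC only 1 was the batch 1 library nearest to batch 3, and SynTem 1 was lowest. They differed on the log2 scale by 0.29 ± 0.07, 0.41 ± 0.11 and 0.47 ± 0.11 (edgeR adjusted p = 0.0397, 0.0471 and 0.0315 in the order Mcm4, Mcm5 and Mcm7). Mcm3, Mcm2 and Mcm6 missed the threshold, with 0.41 ± 0.12 (edgeR adjusted p = 0.0538), 0.31 ± 0.10 (0.0817) and 0.24 ± 0.08 (0.0855).

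Genes of nucleotide supply were also higher in batch 3. Rrm1, the large subunit of ribonucleotide reductase, had 187, 178, 189 and 170.4 CPM in batch 3, 156, 166, 147 and 152 CPM in batch 2 and 121, 104, 126 and 146 CPM in batch 1. Rrm2, its small subunit, had 140.3, 142, 141 and 120 CPM in batch 3, 101, 126, 94.5 and 108 CPM in batch 2 and 99.6, 70.8, 92.4 and 106 CPM in batch 1. For both subunits, batch 3 and batch 1 did not overlap, with log2 differences of 0.55 ± 0.10 (Rrm1, edgeR adjusted p = 0.0299) and 0.56 ± 0.14 (Rrm2, edgeR adjusted p = 0.0391). Tyms, thymidylate synthase, had 41.3, 40.7, 43.7 and 38.0 CPM in batch 3, 39.5, 37.4, 30.2 and 26.7 CPM in batch 2 and 27.2, 22.5, 23.0 and 31.5 CPM in batch 1. AlloTem 2 and SynTem 2 were near batch 3 and DC only 2 within batch 1, and the log2 difference between batches 3 and 1 was 0.65 ± 0.15 (edgeR adjusted p = 0.0316). Tk1 and Pcna were not called, with 0.24 ± 0.10 (edgeR adjusted p = 0.119) and 0.19 ± 0.07 (edgeR adjusted p = 0.111).

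Regulators of mitotic entry were among the called genes. Foxm1, the factor that drives G2/M genes, had 106, 115, 114 and 112 CPM in batch 3, 69.2, 110.5, 67.9 and 95.7 CPM in batch 2 and 63.4, 58.6, 75.2 and 82.9 CPM in batch 1. Ccna2, the cyclin A2 gene, had 150.5, 146, 167 and 142 CPM in batch 3, 93.0, 136, 102 and 122 CPM in batch 2 and 91.3, 79.1, 109 and 119 CPM in batch 1. In both genes SynTem 2 lay near batch 3 and AlloTem 2 near batch 1, and they differed by 0.68 ± 0.15 (Foxm1, edgeR adjusted p = 0.0312) and 0.61 ± 0.14 (Ccna2, edgeR adjusted p = 0.0347). Cdk1, the kinase of mitosis, had 53.8, 47.7, 52.99 and 47.4 CPM in batch 3, 36.2, 43.8, 35.1 and 38.3 CPM in batch 2 and 31.8, 26.8, 33.9 and 36.4 CPM in batch 1. Its lowest batch 3 library was above all 8 others, and the difference from batch 1 was 0.65 ± 0.11 (edgeR adjusted p = 0.0299). Plk1, the Polo kinase, had 34.7, 35.3, 37.5 and 39.5 CPM in batch 3, 16.7, 38.4, 21.01 and 25.4 CPM in batch 2 and 20.4, 19.7, 20.1 and 28.9 CPM in batch 1. Aurka, the Aurora A kinase of centrosomes, had 39.7, 37.2, 37.8 and 32.3 CPM in batch 3, 33.5, 28.4, 22.4 and 27.1 CPM in batch 2 and 28.0, 15.9, 22.5 and 25.7 CPM in batch 1. Plk1 was as high in SynTem 2 as in batch 3, and Aurka was lowest in SynTem 1, with log2 differences of 0.73 ± 0.20 (Plk1, edgeR adjusted p = 0.0477) and 0.69 ± 0.15 (Aurka, edgeR adjusted p = 0.0306).

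Among genes that act on chromosomes and at the spindle checkpoint, Mki67 had 731, 744, 831 and 691 CPM in batch 3, 591, 758, 499.8 and 612 CPM in batch 2 and 448, 337, 386 and 555 CPM in batch 1. Top2a had 575, 559.6, 623 and 526 CPM in batch 3, 450.3, 557, 422 and 538 CPM in batch 2 and 364, 315, 359 and 464 CPM in batch 1. Both were lowest in SynTem 1 and highest in LPS 3, and the batches differed on the log2 scale by 0.81 ± 0.17 (Mki67, edgeR adjusted p = 0.0306) and 0.62 ± 0.13 (Top2a, edgeR adjusted p = 0.0299). Aurkb, the Aurora B kinase, had 82.5, 76.8, 81.2 and 83.6 CPM in batch 3, 52.5, 73.7, 54.3 and 66.6 CPM in batch 2 and 48.4, 46.0, 56.1 and 69.0 CPM in batch 1. Birc5, survivin, which works in a complex with Aurora B, had 70.1, 70.0, 79.6 and 70.2 CPM in batch 3, 50.8, 67.9, 51.7 and 61.1 CPM in batch 2 and 39.3, 40.3, 51.8 and 58.9 CPM in batch 1. These partners had log2 differences of 0.57 ± 0.13 (Aurkb, edgeR adjusted p = 0.0312) and 0.62 ± 0.13 (Birc5, edgeR adjusted p = 0.0299), and DC only 1 was the highest batch 1 library for both. Bub1, a checkpoint kinase, had 43.3, 44.4, 52.99 and 41.3 CPM in batch 3, 37.6, 38.8, 37.8 and 44.5 CPM in batch 2 and 29.6, 25.5, 30.6 and 39.8 CPM in batch 1. Cdc20, which activates the anaphase-promoting complex, had 50.9, 54.8, 54.8 and 47.7 CPM in batch 3, 29.1, 47.3, 28.2 and 32.2 CPM in batch 2 and 27.7, 29.4, 27.9 and 33.4 CPM in batch 1. Bub1 was close between batches in DC only and Cdc20 was apart in all 4 cultures, with log2 differences of 0.55 ± 0.12 (Bub1, edgeR adjusted p = 0.0312) and 0.81 ± 0.13 (Cdc20, edgeR adjusted p = 0.0299). Ccnb1 and Ccnb2, the cyclin B genes whose products activate Cdk1, missed the threshold, with 0.62 ± 0.18 (edgeR adjusted p = 0.0581) and 0.29 ± 0.13 (edgeR adjusted p = 0.157).

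The 4 remaining genes were not called between batches 3 and 1. Cdkn2c, which encodes the Cdk4 and Cdk6 inhibitor p18, had a log2 difference of 0.67 ± 0.19 (edgeR adjusted p = 0.0562) and batch 3 libraries of 46.1 to 54.9 CPM against 25.9 to 39.6 CPM in batch 1. It lay on the side of the division genes, with no overlap. Cdkn1a had -0.65 ± 0.44, Cdkn1b -0.16 ± 0.14 and Myc -0.10 ± 0.14, with overlapping batches (edgeR adjusted p = 0.349, 0.459 and 0.654 in that order).

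**Figure D4:**
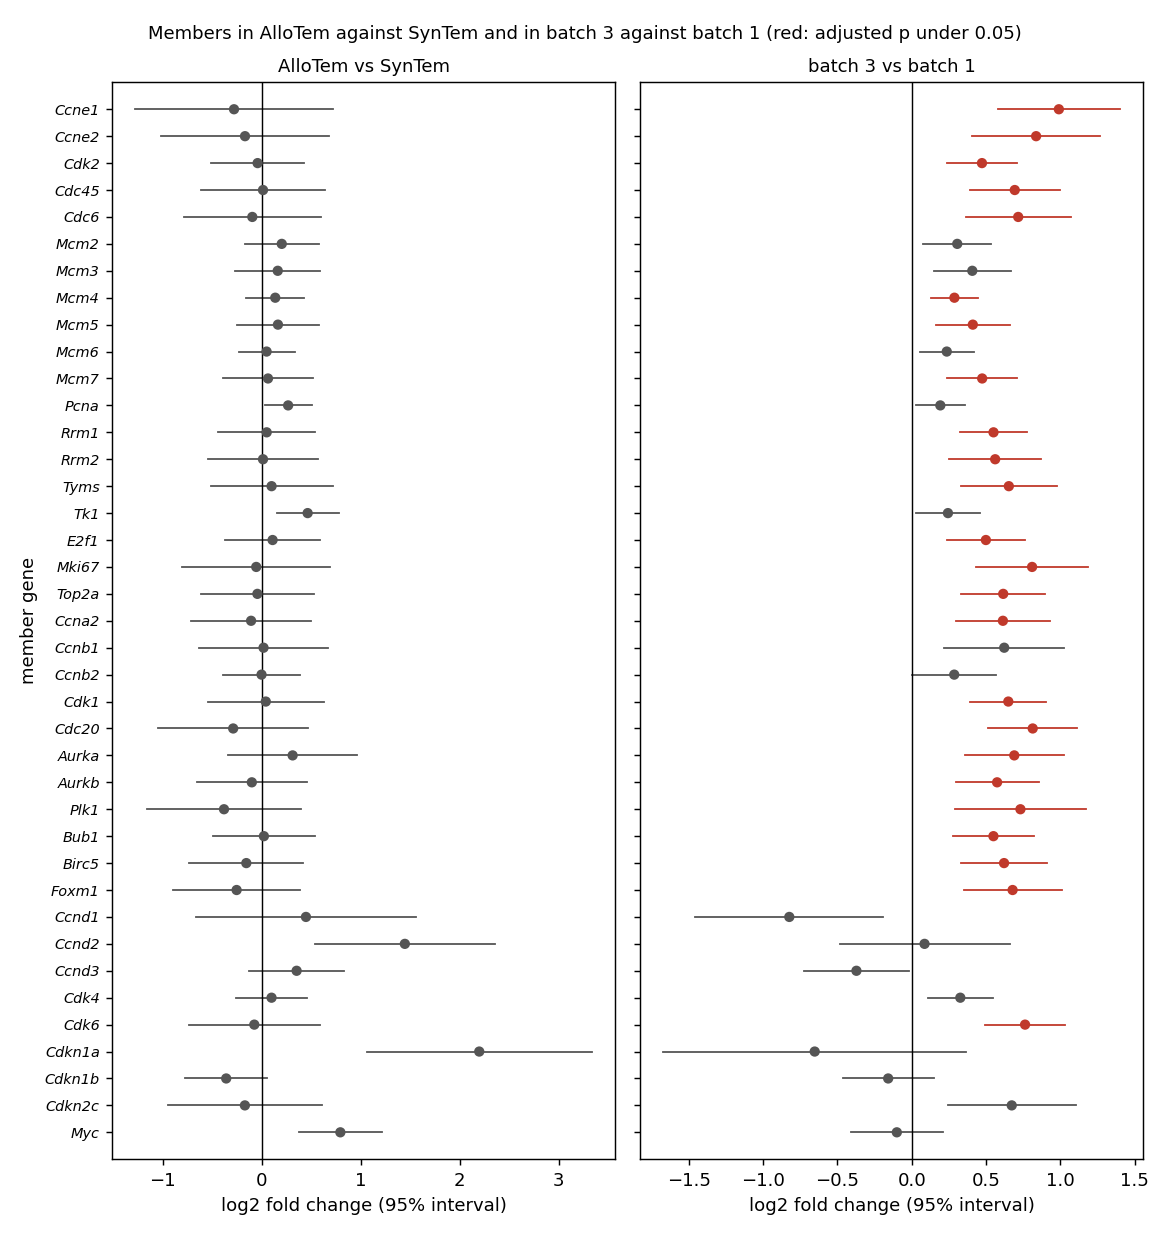
Log2 difference of each of the 39 genes (rows) with its 95% interval, for AlloTem against SynTem (left) and batch 3 against batch 1 (right; the horizontal scales differ), with genes called at an adjusted p under 0.05 in red. No gene is red on the left, where Cdkn1a, Ccnd2 and Myc lie farthest to the right, and 24 are red on the right, between 0.29 and 0.99. The left panel is from the fit without a batch term, the right from the fit with group and batch as terms.

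The step between batches 3 and 1 was seen in each culture, and was smallest in DC only. The median log2 ratio of the 13 G2/M genes was 0.74 in AlloTem, 0.83 in SynTem, 0.65 in LPS and 0.27 in DC only, with 13 of 13 positive in each. That of the 17 G1/S and replication genes was 0.49, 0.78, 0.55 and 0.12 in the same order, with 17 of 17 positive in AlloTem, SynTem and LPS and 15 of 17 in DC only. Whether the step differs between cultures was not tested.

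By the mean sums given above, batch 2 lay between the others. Against batch 2, batch 3 had 0 of the 39 genes called (edgeR; 0.00694% of all genes, 1 gene), with 15 higher and 3 lower at an unadjusted p under 0.05 (8.35% and 8.06% of all genes), and DESeq2 called 6 and limma voom 0. Ccne1, Cdc20 and Ccnd1 had the smallest p, with log2 differences of 0.94 ± 0.18, 0.63 ± 0.13 and -1.16 ± 0.28 (edgeR adjusted p = 0.237 for each). Left out alone, SynTem 2 moved the count to 16 of the 39 and 1949 genes. Batch 2 against batch 1 likewise had 0 of the 39 called (edgeR; 0.00694% of all genes, 1 gene), with 17 higher and 1 lower at an unadjusted p under 0.05 (6.97% and 9.23% of all genes), and DESeq2 called 3 and limma voom 0. Cdk6, Rrm1 and Mcm7 had the smallest p, with 0.42 ± 0.12 (edgeR adjusted p = 0.183), 0.33 ± 0.10 (edgeR adjusted p = 0.187) and 0.35 ± 0.11 (edgeR adjusted p = 0.187). Without DC only 1 that count became 9 of the 39 and 664 genes.

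Other measures moved with the batches. The 4 libraries of batch 3 were all above 100 CPM in Y-linked transcripts and the 4 of batch 1 all at 10.3 CPM or less, so that the batch step and the Y-linked level cannot be told apart there. SynTem 2, the only batch 2 library with Y-linked transcripts (175 CPM), had a G2/M sum of 2012 CPM, against 1424 to 1766 CPM in the 3 other libraries of batch 2. Over all batches, 18 of the 39 genes (46.2%) lay higher without overlap in the 5 libraries with Y-linked transcripts than in the 7 without, 9 of the 13 G2/M genes among them, and 1 (2.56%), Ccnd1, lay lower. Over all genes tested these shares were 6.4% and 4.9%. Of the 5 libraries 4 are the whole of batch 3, so that these counts largely restate the batch step and are not independent of it. NK cell markers (7 of 7 tested) summed to 9.36 to 107 CPM in batch 3, 16.3 to 176 CPM in batch 2 and 174 to 600 CPM in batch 1, and 5 of the 7 fell between batches 3 and 1, led by Ncr1, Klrb1c and Klra8 with log2 differences of -4.63, -4.16 and -3.76. Ncr1, an NK receptor, was at 0.331 to 2.13 CPM in batch 3 and 9.45 to 33.6 CPM in batch 1. In the AlloTem, SynTem, LPS and DC only libraries of batch 2, NK marker sums were 42.4, 76.5, 16.3 and 176 CPM. The G2/M sums of these libraries were 1545, 2012, 1424 and 1766 CPM in the same order. T cell markers summed to 65.6 to 571 CPM in batch 3 and 92.6 to 312 CPM in batch 1, with 0 of 20 called. In batch 2 they summed to 186.5, 708, 115 and 107 CPM in AlloTem, SynTem, LPS and DC only, SynTem 2 being the highest of all libraries. Of the 8 progenitor markers Hoxa9 (1.90 ± 0.36) and Myb (0.77 ± 0.13) rose, and of the 16 conventional DC markers 4 fell (Cd209a, Itgam, Itgax and Sirpa, log2 differences -1.04 to -0.48). The progenitor markers together averaged 563 CPM in batch 3, 609 CPM in batch 2 and 429 CPM in batch 1. Itgam and Itgax encode CD11b and CD11c, the sort markers. Of 6 monocyte markers Csf1r and Cx3cr1 fell (log2 differences -1.45 and -1.25), and of 9 tested erythroid markers Tfrc rose (0.67) and Car2 fell (-0.96). Of all genes tested, 4.48% were called higher and 5.22% lower between batches 3 and 1. These calls fall to 0 genes when any of the 7 libraries named above is left out. The part of these markers in the batch step, NK markers included, was not tested.

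Since G1/S and G2/M genes moved together between batches, promoters of some genes with such steps are shown, as examples that hold the motifs. RefSeq windows of 300 bases around the gene start (GRCm38.p6) were held for 31 of the 39 genes. In these windows the CHR element (TTTGAA on either strand), which is known to bind complexes that repress G2/M genes in resting cells, stood in 7 of 10 G2/M windows, 2 of 15 G1/S windows and 17.9% of all 32851 windows. CCAAT boxes (CCAAT on either strand), which NF-Y binds, stood in 9 of 10 G2/M windows, 10 of 15 G1/S windows and 37.4% of all windows. E2F sites (TTTCCCGC, TTTCGCGC, TTTGCCGC or TTTGGCGC on either strand; they can overlap each other) stood in 6 of 15 G1/S windows, 1 of 10 G2/M windows and 2.26% of all windows. These are matches of letters, with no measure of binding. Capitals mark every match, and overlapping matches run together. Shown 5′ to 3′ on the strand of the gene are Cdc20 (chr4:118437294-118437593, minus strand) and Plk1 (chr7:122159185-122159484, plus strand), mitotic genes with a CHR and CCAAT boxes, and Cdk1 (chr10:69352863-69353162, minus strand), which has all 3 motifs. Mcm5 (chr8:75109259-75109558, plus strand) and Mcm7 (chr5:138171834-138172133, minus strand; 1 of its 2 windows) are replication genes with E2F sites and CCAAT boxes and no CHR.
Cdc20: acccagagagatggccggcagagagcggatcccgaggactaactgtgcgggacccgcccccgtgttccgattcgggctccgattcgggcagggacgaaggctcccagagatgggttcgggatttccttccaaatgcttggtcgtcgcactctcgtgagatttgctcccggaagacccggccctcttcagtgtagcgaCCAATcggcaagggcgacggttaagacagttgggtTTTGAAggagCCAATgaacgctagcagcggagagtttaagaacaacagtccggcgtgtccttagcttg
Plk1: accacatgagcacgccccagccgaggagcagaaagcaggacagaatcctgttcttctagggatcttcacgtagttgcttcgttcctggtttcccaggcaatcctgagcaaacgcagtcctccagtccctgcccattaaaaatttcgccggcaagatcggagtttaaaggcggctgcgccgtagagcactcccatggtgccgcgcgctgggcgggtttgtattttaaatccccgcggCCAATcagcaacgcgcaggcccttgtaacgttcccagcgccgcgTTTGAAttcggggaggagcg
Cdk1: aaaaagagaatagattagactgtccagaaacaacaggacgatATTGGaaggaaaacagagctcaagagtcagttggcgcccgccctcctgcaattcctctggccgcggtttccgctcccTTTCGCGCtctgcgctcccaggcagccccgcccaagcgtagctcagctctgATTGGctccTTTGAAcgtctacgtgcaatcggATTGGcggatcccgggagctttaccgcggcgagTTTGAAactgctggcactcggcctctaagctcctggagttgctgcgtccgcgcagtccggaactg
Mcm5: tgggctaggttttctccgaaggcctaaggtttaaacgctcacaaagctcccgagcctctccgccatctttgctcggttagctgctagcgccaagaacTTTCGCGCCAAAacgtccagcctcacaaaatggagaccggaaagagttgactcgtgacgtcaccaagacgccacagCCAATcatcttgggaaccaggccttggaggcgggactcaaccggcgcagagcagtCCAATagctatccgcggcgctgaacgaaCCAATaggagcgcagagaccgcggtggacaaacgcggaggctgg
Mcm7: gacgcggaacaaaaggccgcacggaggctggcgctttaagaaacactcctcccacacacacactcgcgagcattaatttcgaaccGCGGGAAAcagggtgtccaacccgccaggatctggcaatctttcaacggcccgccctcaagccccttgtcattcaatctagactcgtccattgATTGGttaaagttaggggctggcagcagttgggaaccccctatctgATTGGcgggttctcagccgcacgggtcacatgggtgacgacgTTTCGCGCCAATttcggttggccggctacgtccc
Cdc20, Cdk1 and Plk1 were higher in batch 3 than in batch 1 by 0.81, 0.65 and 0.73 on the log2 scale, and Mcm5 and Mcm7 by 0.41 and 0.47. The windows of Ccne1, with the largest step, and of the called E2f1, Tyms, Birc5 and Cdk6 held none of the motifs. Mcm2, Mcm3, Mcm6, Pcna, Ccnb1, Ccnb2 and Cdkn1b held some of them and were not called. The start used for the Mcm7 window differs from the GENCODE gene start by -539 bases in genome coordinates. For Cdk6, E2f1, Cdkn2c and Cdc6 it differs by 2408, -466, -433 and 350 bases. Their windows therefore do not show whether the sequence at the GENCODE start holds the motifs.

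Genes of the same pathways outside the 39 were read from 8 further lists. Of all genes tested, 4.48% were called higher and 5.22% lower between batches 3 and 1, calls that fall to 0 genes when any of the 7 libraries named above is left out. In that comparison 26 of 41 other mitosis genes rose and 0 fell, and 41 of 41 were positive, with Cenpf, a kinetochore protein, at 0.99 ± 0.22 (edgeR adjusted p = 0.0351), Ttk, the Mps1 checkpoint kinase, at 0.86 ± 0.21 (0.0381) and Kif2c, a kinesin, at 0.86 ± 0.23 (0.0477). Of 33 other replication genes 14 rose and 0 fell, with Clspn, a checkpoint adaptor, at 0.82 ± 0.14, Pole, a DNA polymerase subunit, at 0.76 ± 0.13 and Prim1, a primase, at 0.73 ± 0.15 (edgeR adjusted p = 0.0299 for each). Of 9 other E2F factors and partners 6 rose, led by E2f7 (0.81 ± 0.17), Tfdp2 (0.73 ± 0.19) and E2f8 (0.67 ± 0.17). Genes linked to arrest were called lower or not called. Of 9 antiproliferative early genes 3 fell, Btg1 (-0.87 ± 0.21), Btg2 (-0.63 ± 0.10) and Tob2 (-0.45 ± 0.09), and of 17 p53 targets 4 fell, led by Plk2 (-1.28 ± 0.25), Plk3 (-1.22 ± 0.19) and Btg2, which stands in both lists. Of 11 tested CDK inhibitors and pocket proteins 0 were called by edgeR (2 higher at an unadjusted p under 0.05). In the Myc family list Mycl rose (1 of 10, 0.60 ± 0.14), and of 22 Myc targets Dkc1 rose (0.39 ± 0.10).

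Between cultures the same 8 lists were called only among p53 targets of AlloTem against DC only. That comparison also had the most calls over all genes, 1.76% (253 genes), against 0.451% or less in the others. Plk2, a Polo-like kinase, rose, with 68.1, 56.1 and 34.9 CPM in AlloTem against 7.57, 5.77 and 3.97 CPM in DC only (log2 difference 3.20 ± 0.60, edgeR adjusted p = 0.0279). Gadd45b, a stress-induced gene, rose with a log2 difference of 1.499 ± 0.28 (edgeR adjusted p = 0.0274), and Bbc3, the pro-apoptotic gene Puma, fell by 1.00 ± 0.18 on the log2 scale (edgeR adjusted p = 0.0247). The Plk2 libraries of the 2 groups did not overlap, and 14 of the 17 p53 targets were not called. In AlloTem against SynTem 0 genes of the 8 lists were called, and Gadd45b came nearest (1.23 ± 0.28, edgeR adjusted p = 0.134). AlloTem against LPS likewise had 0 called, and the smallest adjusted p among the p53 targets was that of Bbc3 (-0.85 ± 0.18, edgeR adjusted p = 0.0840). SynTem against DC only and LPS against DC only had 0 called in each list by edgeR, the smallest p being those of Zmat3 (0.93 ± 0.27, edgeR adjusted p = 0.297) and Gadd45b (1.15 ± 0.28, edgeR adjusted p = 0.999). The 41 other mitosis genes were positive in 11 cases for AlloTem against SynTem and in 3, 14 and 8 cases for AlloTem, SynTem and LPS against DC only, with medians of -0.09, -0.14, -0.06 and -0.08 in that order.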

How the data were processed

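The authors deposited raw counts per Ensembl gene identifier and a table of group and batch numbers. Per the submitters' processing notes, reads were placed on mm10. Libraries were TruSeq RNA, read single-end on a NextSeq, per the labels' protocols. Which aligner, counter, strand setting and annotation release were used is not given in the sources used here. GENCODE M21 (GRCm38) gave symbols and coordinates and held 52028 of 57009 identifiers.

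Genes with few counts were removed (filterByExpr, minimum count 10, minimum total 15). TMM scaling was applied and counts were fitted over 12 libraries with 1 mean per group, by edgeR 4.0.16 robust quasi-likelihood (R 4.3.3). Batches were compared in a fit of group plus batch. The Benjamini-Hochberg adjustment ran over 14413 genes, and calls required an adjusted p under 0.05. The script recovered known changes in simulated counts, which were larger than any fitted batch difference of a member. Recovery of differences as small as those was not tested. Standard errors are the log2 difference divided by the square root of F. Within-batch ratios used CPM plus 0.5.

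The members and lists were chosen with earlier results of these data known. Per-library values are given for called members or, where none was called, for those with the 3 smallest p-values; of other lists, up to 3 called genes are named. Alternatives were RLE scaling, no filter, DESeq2 1.42.0, limma voom (limma 3.58.1), the batch block, only the 6 libraries compared, a Y-linked covariate, and leaving libraries out; leaving out DC only 2 and SynTem 2 together in the batch comparisons was chosen after seeing the data. Since the numbers are deposited as batches, they were taken to pair libraries in the batch block, the batch comparisons and the within-batch ratios. The main fit between cultures had no batch term. Its standard errors, intervals and p-values are those given unless the block or another fit is named. Deviations from group means correlated with a median of 0.247 over 18 same-number pairs (12 above 0.1, range -0.25 to 0.63) and -0.20 over 36 others. For 10 of 12 libraries, the libraries of other groups that correlated best on average were those of the same number. The exceptions were DC only 2, which went best with number 1, and SynTem 2, which went best with number 3.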

Additional observations from a re-analysis of the deposited data

How the results depend on the processing

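Over all genes, the edgeR calls were 24 (AlloTem against SynTem), 253 (AlloTem against DC only), 65 (AlloTem against LPS), 13 (SynTem against DC only) and 0 (LPS against DC only), with 0 of the 39 members each. In the same order of comparisons, DESeq2 gave 318, 676, 288, 254 and 10 genes, with 3 members for AlloTem against SynTem and 2 for AlloTem against DC only. The replicate block gave 78, 420, 136, 21 and 0 genes and changed no call of a member. A Y-linked covariate gave 39, 598, 188, 46 and 0 genes, with 2 members for AlloTem against DC only, and reversed the Cdkn1a difference of SynTem against DC only to 0.12 (-0.62 in the reported fit). Fits of only the 6 libraries compared gave 0, 98, 9, 1 and 0 genes, and leaving out DC only 2 and SynTem 2 together gave 2, 16, 25, 1 and 1. Without the filter on low counts, AlloTem against SynTem had 41 genes and SynTem against DC only 33. With limma voom SynTem against DC only had 2. Leaving out 1 library at a time gave 3 (without SynTem 2) to 47 (without AlloTem 3) genes for AlloTem against SynTem and 0 to 1 member, the 1 without DC only 3. It gave 42 (without DC only 1) to 323 genes for AlloTem against DC only, 9 (without LPS 2) to 67 for AlloTem against LPS, 0 (without SynTem 2, among others) to 56 (without SynTem 1) for SynTem against DC only and 0 to 1 (without DC only 2) for LPS against DC only.

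Batch 3 against batch 1 had 1398 genes and 24 members called; DESeq2 gave 2579 genes, and leaving out DC only 2 and SynTem 2 gave 3037. Single libraries left out gave 0 to 2898 genes (without SynTem 2) and 0 to 30 members. Batch 3 against batch 2 had 1 gene and 0 members; RLE scaling and limma voom gave 0 genes, DESeq2 383 genes and 6 members, leaving out DC only 2 and SynTem 2 gave 1494 genes and 14 members, and single libraries left out gave 0 to 1949 genes and 0 to 16 members (most without SynTem 2). Batch 2 against batch 1 had 1 gene and 0 members; DESeq2 gave 550 genes and 3 members, limma voom 0 genes, leaving out DC only 2 and SynTem 2 gave 300 genes, and single libraries left out gave 0 to 664 genes and 0 to 9 members (most without DC only 1). The cause of these moves was not tested. Of the values of single genes under all alternatives, 611 kept their direction and side of the threshold, 178 lost a call, 20 gained one and 1 reversed.

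With 3 libraries per culture, what could be detected differed between genes: for AlloTem against SynTem the 95% interval of Ccnb2 was -0.39 to 0.38 and that of Plk1 was -1.16 to 0.40. Both are from the fit without a batch term. The member with the fewest reads, Ccne1, had 125 counts in its lowest library. Between batches 3 and 1, batch and Y-linked level cannot be told apart; the part of the markers that moved with them was not tested.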
